A study of Mus musculus with 4 samples.

Results

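The genes described here encode the AP-1 transcription factors and their companions of the immediate early response. The 10 members are Fos, Fosb, Fosl1, Fosl2, Jun, Junb, Jund, Atf3, Egr1 and Ier3, and their probes were found by gene symbol in the annotation of the arrays. No threshold on their values was used, but the list itself was drawn up with earlier results of these data known. They were 10 of 20619 gene names that had a probe flagged by the scanner software as well above background on at least 1 array. The arrays carried 15 probes for them, of which 13 passed that flag on at least 1 array and 12 on all 4. Each member was represented by its brightest probe, and for every member that probe was well above background on all 4 arrays. No member was lost to the filter on dim probes.

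AP-1 is a dimer of a Jun protein with a Fos protein, with another Jun protein or with a member of the ATF family, and it binds short DNA sites near the genes it controls. The Fos, Jun and Egr genes are called immediate early genes because their transcription starts within minutes of a growth factor, cytokine or stress signal, without the need for new protein, and then usually subsides. In liver, these factors are known for their induction after partial hepatectomy, during inflammation and when hepatocytes are isolated and plated. Their messages are generally short lived, so a level read at a late time is a remaining or maintained level rather than the first burst.

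The cells were primary hepatocytes of C57BL/6 mice, taken 24 h after they were seeded. There were 4 groups with 1 array each. Drp1LiKO mice carried Drp1flox/flox alleles and a Cre transgene under the albumin promoter, which removes Dnm1l in hepatocytes. Dnm1l encodes Drp1, the GTPase that divides mitochondria. Control mice were Drp1flox/flox siblings without Cre, so the floxed alleles are common to all 4 groups, although some labels call the controls wild-type. All animals were male according to the methods, and the age of those used for the arrays is not given in the sources used here. Each genotype was cultured without palmitate, a saturated fatty acid, or with it at 200 μM. The length of the palmitate exposure is not stated for the arrays, nor is the number of animals behind each culture. The preparation pelleted hepatocytes at low speed and discarded cells that had not attached, and no step is described that sorts out other liver cells. According to its label, the untreated control shares its raw data with a sample of another series.

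Without replicates, the variation among animals or cultures is unknown, and no p-value belongs to a pair of arrays. The only error at hand is the one the scanner software gives for each spot, which for most members was near 0.14 on the log2 scale and covers the spot alone. One slide carried both untreated arrays and a different slide both palmitate arrays, so palmitate and slide cannot be told apart, whereas each slide held both genotypes. Levels are log2 intensities after normalization, where 0 is the array's 75th percentile. Levels of different probes were not compared with each other, except that the marker sums below add them, so that bright probes weigh most. In bulk RNA, fewer cells of a type and less RNA per cell cannot be told apart.

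The upstream sequences of 4 members are shown because later results turn on these genes, and because their matches differ. The RefSeq table (GRCm38.p6) held a start site for 8 of the 10 members. It was searched over the 250 bases upstream of each start, on both strands, for the AP-1 site TGANTCA, the related 8-base site TGANNTCA of ATF and Jun dimers, the cyclic AMP response core TGACG, the NF-κB-type site GGANTTTCC and the CArG box bound by serum response factor. The core can lie inside the 8-base site. Capitals mark the matches.

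Ier3, chr17:35821463-35821712, plus strand: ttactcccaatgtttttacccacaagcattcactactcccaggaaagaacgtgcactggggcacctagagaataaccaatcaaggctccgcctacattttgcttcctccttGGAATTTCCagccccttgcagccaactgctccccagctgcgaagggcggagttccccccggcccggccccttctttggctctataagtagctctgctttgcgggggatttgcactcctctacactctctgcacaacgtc
Atf3, chr1:191183334-191183583, minus strand: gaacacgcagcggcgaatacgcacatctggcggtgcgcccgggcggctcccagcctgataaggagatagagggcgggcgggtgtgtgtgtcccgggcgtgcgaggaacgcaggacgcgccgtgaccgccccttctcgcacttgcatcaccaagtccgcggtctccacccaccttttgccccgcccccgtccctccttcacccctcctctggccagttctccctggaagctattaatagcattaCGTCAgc
Jun, chr4:95052223-95052472, minus strand: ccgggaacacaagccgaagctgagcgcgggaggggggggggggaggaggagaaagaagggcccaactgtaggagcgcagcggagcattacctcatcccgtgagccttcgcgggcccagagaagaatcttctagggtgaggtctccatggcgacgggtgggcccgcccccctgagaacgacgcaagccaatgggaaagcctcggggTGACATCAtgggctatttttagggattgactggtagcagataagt
Fos, chr12:85473640-85473889, plus strand: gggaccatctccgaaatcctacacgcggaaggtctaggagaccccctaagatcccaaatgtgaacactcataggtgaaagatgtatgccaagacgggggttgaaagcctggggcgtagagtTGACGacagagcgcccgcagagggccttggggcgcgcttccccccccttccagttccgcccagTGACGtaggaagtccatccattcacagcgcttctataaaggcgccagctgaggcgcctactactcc

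The Ier3 window held the NF-κB-type match, from 139 to 131 bases upstream of the start, as the only one of the 8 members. That site occurs in 1.07% of the 32851 windows in the table. The 8-base site was found in Jun, as TGACATCA, and in Jund, as TGAAATCA, and in 11.9% of all windows. The cyclic AMP response core lay in Fos, Fosb, Junb and Atf3, with Fos holding it at 2 places, and in 17.8% of all windows. The exact AP-1 site was in 0 of the 8 windows, against 6.75% of all windows, and the CArG box also in 0, against 1.47%. These letters are a description of 250 bases and say nothing on sites elsewhere.

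The targeted gene Dnm1l read 2.42 in untreated control, 1.07 in untreated Drp1LiKO, 2.43 in control with palmitate and 1.01 in Drp1LiKO with palmitate. It was lower in both Drp1LiKO cultures, as the labels have it. Whether its probe lies in the deleted part was not checked. Gapdh differences lay between −0.109 and −0.031 in the 4 comparisons. Albumin and transthyretin, which mark hepatocytes, read between 5.89 and 9.03 on the 4 arrays, and the summed level of 14 measured hepatocyte markers lay between 1821 and 1888 in units of each array's 75th percentile. Single hepatocyte markers differed with genotype. In Drp1LiKO 2 of 13 measured were past 2-fold upward untreated and 4 of 14 with palmitate, with 0 downward. Of all genes, 14.4% and 11.5% were past 2-fold in either direction. Pck1, among those with palmitate, passed the background flag in Drp1LiKO alone. Markers of other liver cells also moved with genotype. The summed level of 18 measured macrophage markers, of 21 listed names, was 25.5 in untreated control, 58.5 in untreated Drp1LiKO, 30.4 in control with palmitate and 56.2 in Drp1LiKO with palmitate. The Kupffer cell marker Clec4f was well above background in Drp1LiKO but in neither control culture, so the filter fixed its direction. Vsig4 passed the flag in untreated Drp1LiKO alone. Of the macrophage markers well above background on both arrays, 11 of 14 were past 2-fold upward untreated and 8 of 11 with palmitate, with 0 downward. Others differed little, such as Cd14 by 0.22 untreated and 0.055 with palmitate, and Ptprc by 0.165 and −0.017. Endothelial markers summed to 2.48, 6.87, 2.51 and 4.86 in the same order, and stellate cell markers to 45.3, 62.7, 46.5 and 59.4. Cholangiocyte markers summed to 60.5, 41.8, 57.1 and 43.6, mostly through Spp1, which is also on the AP-1 target list. The stellate sum came mostly through Acta2, which was only 0.22 higher in untreated Drp1LiKO and 0.02 higher in Drp1LiKO with palmitate. Other stellate markers differed more, such as Dcn by 4.19 and 4.04 and Col1a2 by 3.02 and 2.44. All measured stellate markers were higher in Drp1LiKO, 10 of 10 untreated and 9 of 9 with palmitate, but the filter fixed the direction of many. Only 5 untreated and 4 with palmitate were well above background on both arrays, with a median difference of 1.11 and 1.615. The others passed the flag in Drp1LiKO alone. Lrat passed it on neither palmitate array and was not counted there. The share of all genes that were higher was not counted. Single macrophage markers also differed with palmitate, such as Marco by 3.60 in control and 2.77 in Drp1LiKO, and Cd5l by −1.99 and −3.07. Of the neutrophil and lymphocyte markers, 3 each were measured. With palmitate in Drp1LiKO, S100a8 was at least 13.08-fold, Cd79a 6.64-fold and Ms4a1 2.6-fold higher. Their untreated Drp1LiKO values were not well above background, so the filter fixed their direction. Ly6g, Elane and Cd3e differed there by −0.29, 0.31 and 0.08. The part of such cells in the differences below, between genotypes or with palmitate, was not tested.

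Of the 10 members, Ier3 was the 1 whose representing probe differed by 2-fold or more between any of the pairs of arrays. Ier3 encodes a short lived protein that acts on cell survival and on the duration of ERK and NF-κB signals. Its probe (NM_133662, mm9 chr17:35959528-35959587) read 3.65 in untreated control, 2.48 in untreated Drp1LiKO, 3.97 in control with palmitate and 4.32 in Drp1LiKO with palmitate. The untreated Drp1LiKO array stood apart as the low value, and the other 3 arrays lay between 3.65 and 4.32.

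Untreated, Ier3 was lower in Drp1LiKO by 2.25-fold, a log2 difference of −1.17 with a scanner error of 0.204. With palmitate, Ier3 was higher in Drp1LiKO, with a log2 difference of 0.35 and the same error. The genotype difference of Ier3 thus had opposite signs in the 2 conditions. The palmitate response of Ier3 was 0.32 in control and 1.84 in Drp1LiKO, a 3.58-fold higher level, which placed it 53rd from the top of 17853 genes well above background on both Drp1LiKO arrays. Between the genotypes, the palmitate response differed by 1.52 with a scanner error of 0.289. With 1 array per group this difference of differences has no test, and 10.8% of all genes reached 2-fold in it. The comparisons share arrays, so the low untreated Drp1LiKO value enters each of the larger ones. Ier3 had 1 probe on the array, so no second probe could be set beside it. Of the 24 spots around the Ier3 spot, 1 was lit on the untreated control array alone and 1 on the untreated Drp1LiKO array alone, and 0 on either palmitate array. Over all spots of an array the mean of such neighbours was between 0.129 and 0.595. Among the representing probes of the other members, the highest counts were 4 around Jun on the untreated control array and 3 around Fos on the Drp1LiKO palmitate array, and their part in the Jun and Fos values was not tested.

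**Figure D1:**
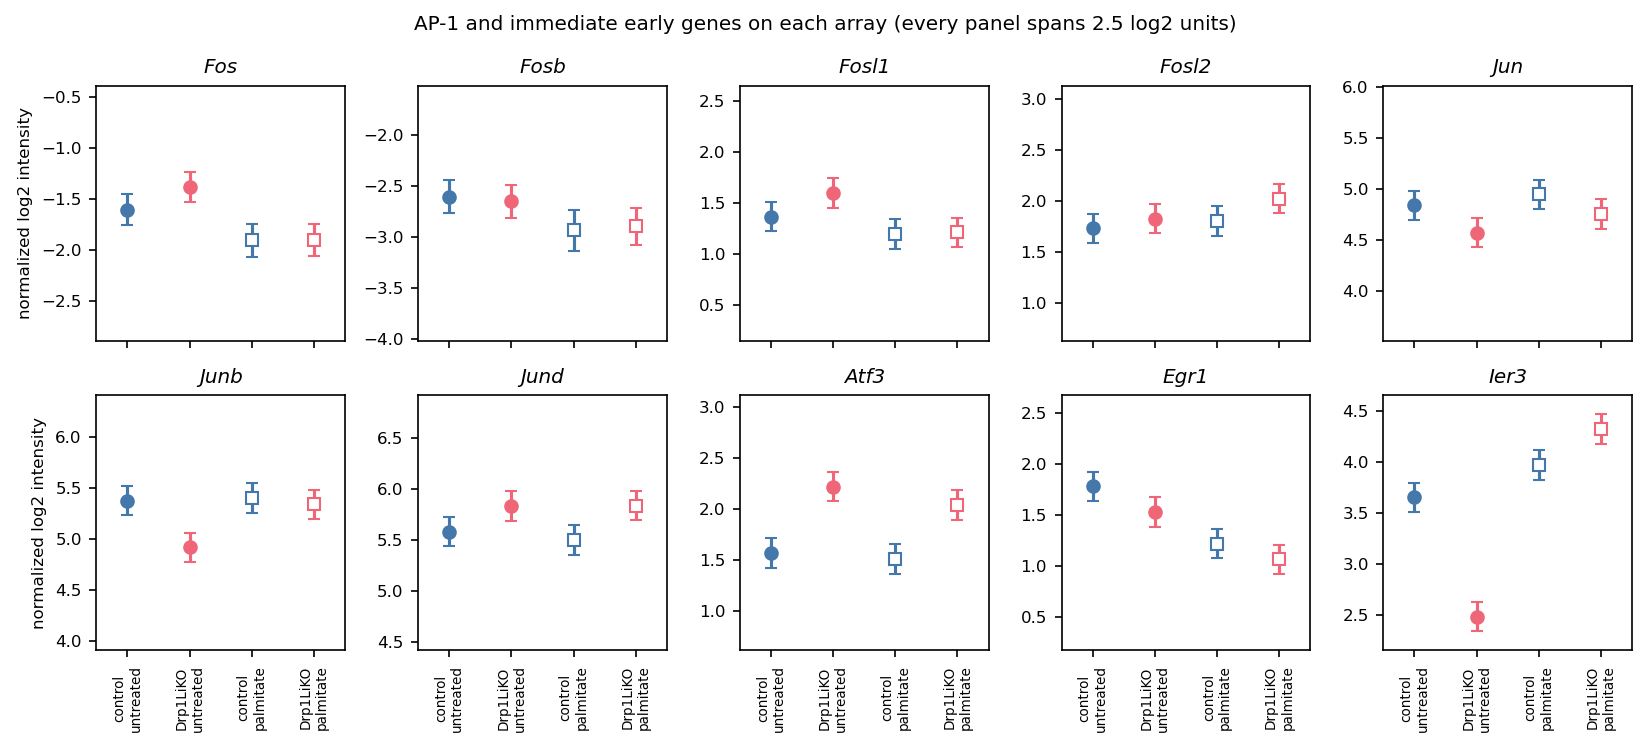
Normalized log2 intensity (vertical axis) of the probe that represents each member on the 4 arrays (horizontal axis), with blue for control, red for Drp1LiKO, filled circles for untreated and open squares for palmitate, bars showing the scanner error of the spot and every panel spanning the same log2 range. Ier3 read 2.48 on the untreated Drp1LiKO array and between 3.65 and 4.32 on the others, whereas Atf3 was the higher in Drp1LiKO on both slides.

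Atf3 encodes a stress-induced ATF family protein that forms dimers with Jun proteins and often represses its targets. Its probe (NM_007498, mm9 chr1:192994547-192994606) read 1.57 in untreated control, 2.22 in untreated Drp1LiKO, 1.51 in control with palmitate and 2.04 in Drp1LiKO with palmitate. Both Drp1LiKO values lay above both control values. The log2 difference between the genotypes was 0.65 untreated and 0.53 with palmitate, or 1.57-fold and 1.44-fold, each with a scanner error of 0.204. The palmitate differences of Atf3 were −0.06 for control and −0.18 for Drp1LiKO, both within the scanner error. The summed macrophage, endothelial and stellate markers were higher in the same 2 cultures and the cholangiocyte sum lower, as given above, and their part in the Atf3 difference was not tested.

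The additive limma fit over all 4 arrays gave Atf3 a genotype effect of 0.59 (SE 0.081), with an unadjusted p of 0.0145 and an adjusted p of 0.138. It was the 1 member with an unadjusted p under 0.05 for genotype. Over all 20619 genes, limma called 0 for genotype, 0.0% of those tested, with 5364 at an unadjusted p under 0.05. The adjusted p of Atf3 depended on the setting, from 0.00461 with an intensity trend in the variance, through 0.0352 when all 4 arrays had to pass the background flag, to 0.199 with no filter on dim probes.

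Jun proteins can pair with each other or with a Fos protein to form AP-1. Jun, the strongest activator among them, read 4.84 in untreated control, 4.57 in untreated Drp1LiKO, 4.95 in control with palmitate and 4.76 in Drp1LiKO with palmitate. Both Drp1LiKO values of Jun lay below both control values. The log2 difference was −0.27 untreated, slightly more than the scanner error of 0.204, and −0.19 with palmitate, within it. The limma genotype effect of Jun was −0.23 with an adjusted p of 0.233.

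Junb, which often opposes Jun in proliferating cells, read 5.37 in untreated control, 4.92 in untreated Drp1LiKO, 5.40 in control with palmitate and 5.34 in Drp1LiKO with palmitate. Like Ier3, Junb had its low value on the untreated Drp1LiKO array, and its other 3 values lay close together. The log2 difference of Junb between untreated genotypes was −0.46, and its palmitate response in Drp1LiKO was 0.42. A second Junb probe (mm9 chr8:87501881-87501940), about 1 kb from the first (chr8:87500843-87500902), read −1.11, −1.95, −1.19 and −1.26 in the same order. That second probe gave −0.84 between untreated genotypes and 0.70 for palmitate in Drp1LiKO, larger than the first and in the same direction. Neither probe reached 2-fold. Another Junb probe, designed to the clone AK044253, was not well above background on any array.

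Jund, the Jun gene that is expressed most steadily in resting cells, read 5.58 in untreated control, 5.83 in untreated Drp1LiKO, 5.50 in control with palmitate and 5.83 in Drp1LiKO with palmitate. A second Jund probe, which lies beside the first on mm9 chromosome 8, read 5.47, 5.66, 5.53 and 5.81. On both probes the Drp1LiKO values were the higher ones. The genotype difference of Jund was 0.25 untreated and 0.34 with palmitate by the first probe, and 0.18 and 0.28 by the second. The palmitate differences were within the scanner error by either probe. The limma genotype effect of Jund was 0.29 (SE 0.076) with an adjusted p of 0.196.

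The Fos proteins do not pair with each other and need a Jun partner to bind DNA. Fos itself (NM_010234, mm9 chr12:86818118-86818177) read −1.60 in untreated control, −1.38 in untreated Drp1LiKO, −1.91 in control with palmitate and −1.90 in Drp1LiKO with palmitate. Both palmitate arrays were lower than both untreated arrays, with log2 differences of −0.30 in control and −0.52 in Drp1LiKO. Fosb, a close relative of Fos, read −2.60, −2.65, −2.94 and −2.89 in the same order and was likewise lower on both palmitate arrays, at −0.33 for control and −0.24 for Drp1LiKO. The second Fosb probe was not well above background on any array.

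Fosl1, also called Fra-1, read 1.37 in untreated control, 1.60 in untreated Drp1LiKO, 1.19 in control with palmitate and 1.21 in Drp1LiKO with palmitate. It too was lower with palmitate, with differences of −0.17 in control, within the scanner error of 0.204, and −0.39 in Drp1LiKO. Fosl2, also called Fra-2, read 1.74, 1.83, 1.81 and 2.03, and was the 1 Fos gene that read higher with palmitate in both genotypes, by 0.07 and 0.20, although the control value turned to −0.21 when all its probes were averaged. Its 4 arrays spanned 0.29 in all. A second, dim probe of Fosl2 (mm9 chr5:32455088-32455147) read −4.31, −4.42, −4.80 and −3.53 in the same order, and was not well above background in control with palmitate. There it stood at least 2.19-fold higher in Drp1LiKO than in control with palmitate. The scanner error of that second Fosl2 difference was 0.606, against 0.204 for the main probe, which gave 0.22.

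**Figure D2:**
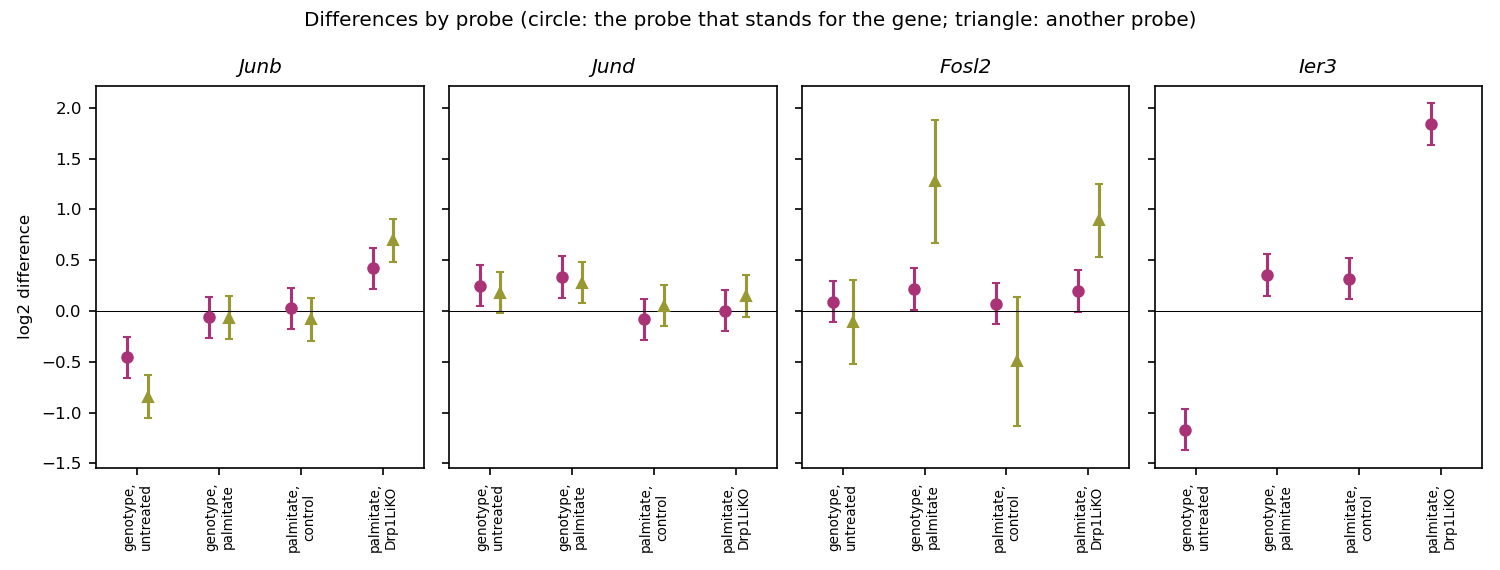
Log2 difference (vertical axis) in each of the 4 comparisons (horizontal axis) for the probes of Junb, Jund and Fosl2 that were well above background on at least 1 array, with Ier3 for scale, where circles are the representing probe, triangles another probe and bars the scanner error. The Junb probes gave −0.46 and −0.84 between untreated genotypes, and the dim Fosl2 probe has the widest bars.

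Egr1 encodes a zinc finger factor that is induced with Fos through serum response factor but binds other, GC-rich sites. It read 1.78 in untreated control, 1.53 in untreated Drp1LiKO, 1.21 in control with palmitate and 1.06 in Drp1LiKO with palmitate. Both palmitate values lay below both untreated values. The palmitate difference was −0.56 in control, which ranked Egr1 200th from the lowest of 16832 genes well above background on both control arrays, and −0.46 in Drp1LiKO. Between the genotypes Egr1 differed by −0.25 untreated and −0.15 with palmitate, the latter within the scanner error. In limma the palmitate effect was −0.51 (SE 0.077) with an unadjusted p of 0.0177 and an adjusted p of 0.511. Fos was the other member with an unadjusted p under 0.05 for palmitate, at 0.0488, with an effect of −0.41 and an adjusted p of 0.512. For palmitate, limma called 0 of 20619 genes, 0.0%, with 1996 at an unadjusted p under 0.05. All palmitate effects are also slide effects.

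**Figure D3:**
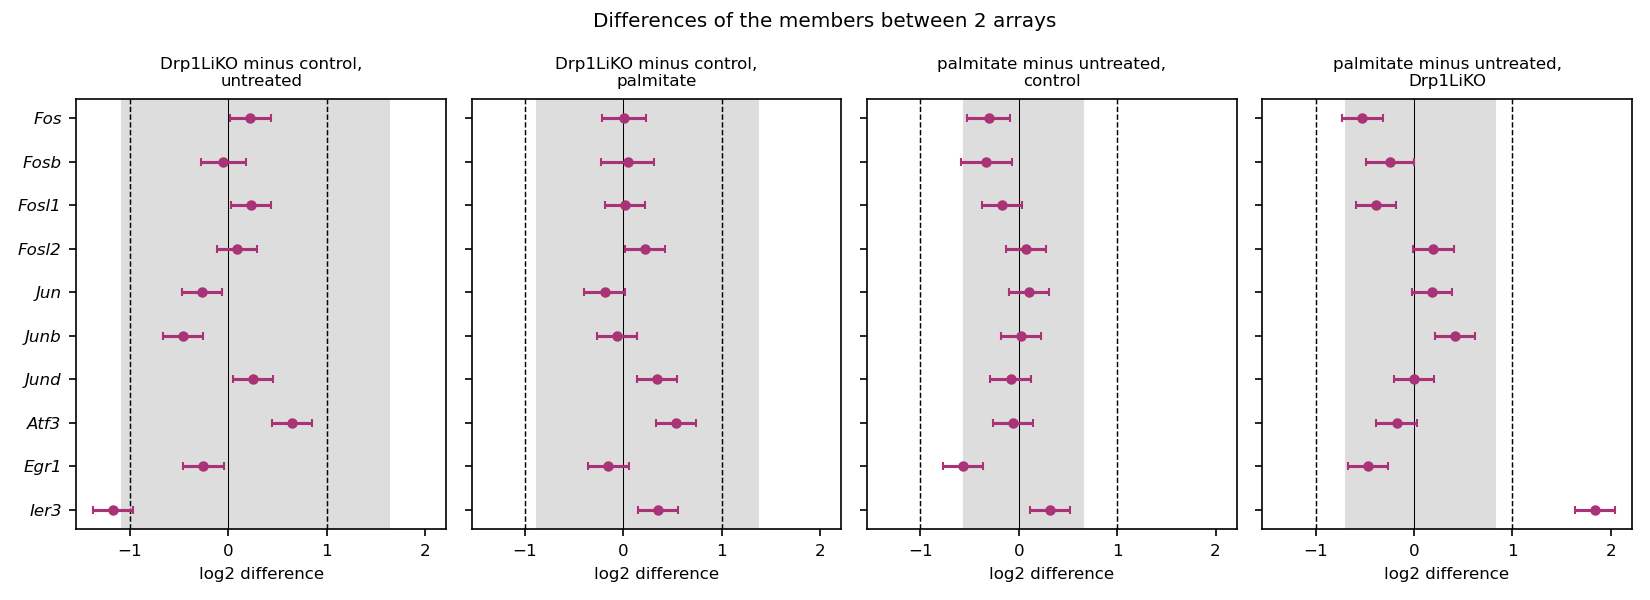
Log2 difference (horizontal axis) of each member (vertical axis) between 2 arrays in the 4 comparisons, with bars for the scanner error, dashed lines at 2-fold and a grey band from the 5th to the 95th percentile of all genes. Ier3 lies beyond 2-fold between the untreated genotypes at −1.17 and for palmitate in Drp1LiKO at 1.84, and in the other 2 panels every member stays inside 2-fold.

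Counted by comparison, the members gave few large differences. Between the untreated genotypes 1 of 10 members was past 2-fold, and it was lower in Drp1LiKO, where 14.4% of all 19878 genes were past 2-fold in either direction. With palmitate 0 of 10 members differed by that much between genotypes, against 11.5% of genes. For palmitate in control the count was 0 of 10 against 5.7% of genes, and in Drp1LiKO it was 1 of 10, higher, against 7.03%. These shares are close to the background at this number of members. At 1.5-fold, Atf3 joined Ier3 between the untreated genotypes, where 26.7% of genes were past it, and no other count of members grew, against 21.1% of genes past it between genotypes with palmitate, 10.6% for palmitate in control and 14.1% for palmitate in Drp1LiKO.

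The median log2 difference of the members was 0.02 between untreated genotypes, 0.03 between genotypes with palmitate, −0.07 for palmitate in control and −0.09 for palmitate in Drp1LiKO. The medians over all genes were −0.02, −0.03, 0.01 and 0.00 in the same order. Differences beyond the scanner's own error were seen for 8 of 10 members between untreated genotypes, 4 with palmitate, 4 for palmitate in control and 6 for palmitate in Drp1LiKO. Of all genes, 58.2%, 51.0%, 31.2% and 40.9% went beyond that error.

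The 2 genotype comparisons use separate arrays. In them 8 of 10 members differed in the same direction, against 78.4% of 18151 genes, and Fosb and Ier3 had opposite signs, although both Fosb values were within the scanner error. The 2 palmitate comparisons also use separate arrays but the same pair of slides. There 9 of 10 members had the same direction, against 66.4% of 17905 genes, and Jund, within its error in both, was the exception. Directions that lay within the scanner error could turn with the scaling. Centring each array on its median instead of its 75th percentile shifted all genes by −0.18 and −0.16 in the genotype comparisons, which made Fosl2 untreated and Fos, Fosb and Fosl1 with palmitate negative, whereas the signs of Atf3, Jun, Junb, Jund, Egr1 and Ier3 between genotypes were the same under all 8 alternative settings. For palmitate, Fosl2 and Junb in control and Jund in Drp1LiKO changed sign under some settings, all within the scanner error.

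The other genes of the pathway were read from 5 lists. The inputs, MAP kinases and the Elk and Mkl cofactors of serum response factor, had 23 of 23 genes measured. None of them, 0 of 23, was past 2-fold in any comparison, against the backgrounds given above. Their medians lay between −0.001 and 0.05. Mapk8, which encodes the Jun kinase JNK1, had genotype differences of 0.66 untreated and 0.78 with palmitate. Map2k3, a kinase upstream of p38, had −0.45 and −0.56. Map3k8, a kinase of inflammatory signalling, read 0.66 higher with palmitate in control and 0.65 higher in Drp1LiKO.

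Among the partners of AP-1, bZIP proteins of the ATF, BATF and MAF groups, 16 of 17 were measured. Between the untreated genotypes 1 of 16 was past 2-fold, against 14.4% of genes, and with palmitate 2 of 15, against 11.5%. These were Batf2, and Batf with Batf2, which entered the counts through the Drp1LiKO arrays alone, so their direction was fixed by the filter. Of the 13 partners well above background on both arrays, 0 were past 2-fold in either genotype comparison. For palmitate the counts were 0 of 13 in control and 1 of 16, Batf, in Drp1LiKO, against 5.7% and 7.03%. Maf had genotype differences of 0.94 untreated and 0.84 with palmitate, and Jdp2, a repressor of AP-1, −0.57 and −0.66. Batf, which pairs with Jun proteins in immune cells, read −4.40 in untreated Drp1LiKO and −2.58 in Drp1LiKO with palmitate, which differ by 1.82, and had no control value well above background. Macrophage marker sums were also lower in control, and their part in the Batf values was not tested.

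Of the other immediate early transcription factors, 18 were measured between the untreated genotypes, with 1 past 2-fold, against 14.4% of genes. That gene was Egr2, a relative of Egr1, which read −4.05 for control against −2.22 for Drp1LiKO, 1.83 higher. The control value was dim, near that array's lowest value well above background of −4.74. In control with palmitate Egr2 did not pass the background flag. With palmitate Egr2 read −3.51 in Drp1LiKO, a palmitate difference of −1.29. For palmitate in Drp1LiKO, 3 of 18 genes of this list differed upward and the median was −0.17, with 1 past 2-fold. In control 7 of 19 differed upward with a median of −0.07. The medians over all genes were 0.004 in Drp1LiKO and 0.007 in control. Slide and palmitate cannot be told apart in these differences, and the share of all genes that differed upward was not counted. In control 1 gene of this list was past 2-fold with palmitate, and the same 1 between the genotypes with palmitate. It was Egr3, named after its values were seen, whose probe passed the background flag in control with palmitate alone, so that its direction was fixed by the filter. The shares of all genes in these comparisons were 5.7% and 11.5%, and 7.03% for palmitate in Drp1LiKO. Nr4a1, an orphan nuclear receptor induced with Fos, had palmitate differences of −0.70 in Drp1LiKO and −0.29 in control. Nr4a2 had genotype differences of −0.60 untreated and −0.79 with palmitate. For Ets2, a factor that often acts beside AP-1, they were 0.65 and 0.75.

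The effectors and feedback genes include the dual specificity phosphatases, which switch MAP kinases off. All 29 were measured. Between the untreated genotypes 1 was past 2-fold upward and 1 downward, against 14.4% of genes in either direction, and with palmitate 1 upward and 3 downward of 28, against 11.5%. For palmitate, 1 of 28 was past 2-fold upward in control, against 5.7% of genes, and 1 of 29 downward in Drp1LiKO, against 7.03%. These were Arc and Spry4. Arc differed by 1.99 in control, from a dim untreated value of −4.28, near that array's lowest value well above background of −4.74. Spry4 was named after its values were seen. Its probe passed the background flag in untreated Drp1LiKO alone, so that its direction was fixed by the filter. Dusp6, the ERK phosphatase, read 4.28 in untreated control, 2.98 in untreated Drp1LiKO, 4.02 in control with palmitate and 2.94 in Drp1LiKO with palmitate. Both Drp1LiKO values of Dusp6 were the lower ones, with differences of −1.29 and −1.08. Dusp4 went the other way with 0.98 and 1.04, as did Dusp2, which is best known from immune cells, with 1.02 and 0.83. Gadd45b had −0.95 between the untreated genotypes, and Sgk1 −1.10 between the genotypes with palmitate. The remaining gene past 2-fold there was Arc, which read −2.29 in control. It did not pass the background flag in Drp1LiKO, so that its direction was fixed by the filter. Of the 27 genes well above background on both of those arrays, 1 was upward and 2 downward. Nfkbia, the NF-κB inhibitor and itself an NF-κB target, read 3.77, 2.83, 4.37 and 3.66 in the order used above. Like Ier3, it had its lowest value in untreated Drp1LiKO and was higher with palmitate in both genotypes, by 0.60 in control and 0.83 in Drp1LiKO, but unlike Ier3 it stayed lower in Drp1LiKO with palmitate.

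The list of AP-1 target genes, secreted enzymes, cytokines and growth factors with AP-1 sites described in other systems, had 20 of 20 genes measured. Between the untreated genotypes 7 of 20 were past 2-fold upward and 4 downward, against 14.4% of all genes in either direction. The downward genes were Ccl2, Fgf21, Hbegf and Timp1, of which Timp1 was named after its values were seen. Of the 7 upward genes, 4 entered the count through the Drp1LiKO array alone, which fixed their direction, and of the 15 genes well above background on both arrays 3 were upward and 4 downward. Between the genotypes with palmitate 9 were past 2-fold upward and 1, Ccl2, downward, against 11.5% of genes. Of the 18 genes well above background on both of those arrays, 7 were upward and 1 downward. For palmitate, 4 of 18 were past 2-fold upward in control, against 5.7% of genes, of which 1, Ccl2, was well above background on both arrays. In Drp1LiKO 4 of 20 were upward and 1 downward, against 7.03%, and each of these 5 passed the background flag on both arrays. The direction was mixed between the untreated genotypes. The median was 0.36 over all 20 genes and −0.42 over the 15 well above background on both arrays. Areg, a growth factor of the EGF family, was higher in untreated Drp1LiKO by 2.19 and Lcn2, an iron-binding acute phase protein, by 1.67, whereas the chemokine Ccl2 had a difference of −1.56 and Fgf21, a hormone of the fasting liver, one of −1.12. With palmitate Il6 was higher in Drp1LiKO by 3.29 and the collagenase Mmp13 by 2.60, and Ccl2 and Fgf21 were again lower, at −1.04 and −0.96. Untreated, the log2 differences of Il6 and Mmp13 between the genotypes were 3.42 and 3.35. Their untreated control values were not well above background, and the bounds are at least 2.33-fold and 2.84-fold. Ccl2 read higher with palmitate by 1.28 in control and by 1.79 in Drp1LiKO. The palmitate log2 difference of Il6 was 3.44 in Drp1LiKO and 3.57 in control. In control its untreated value was not well above background, and the bound there is at least 2.58-fold. For Mmp13 the log2 difference was 2.45 in Drp1LiKO and 3.20 in control, where the untreated value was again not well above background and the bound is at least 2.56-fold. The palmitate difference of Areg was −0.24 in control and −1.33 in Drp1LiKO. None of these differences between the genotypes' responses was tested. Several of these genes, such as Il6 and Mmp13, are also made by macrophages or stromal cells, and the part of such cells was not tested.

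**Figure D4:**
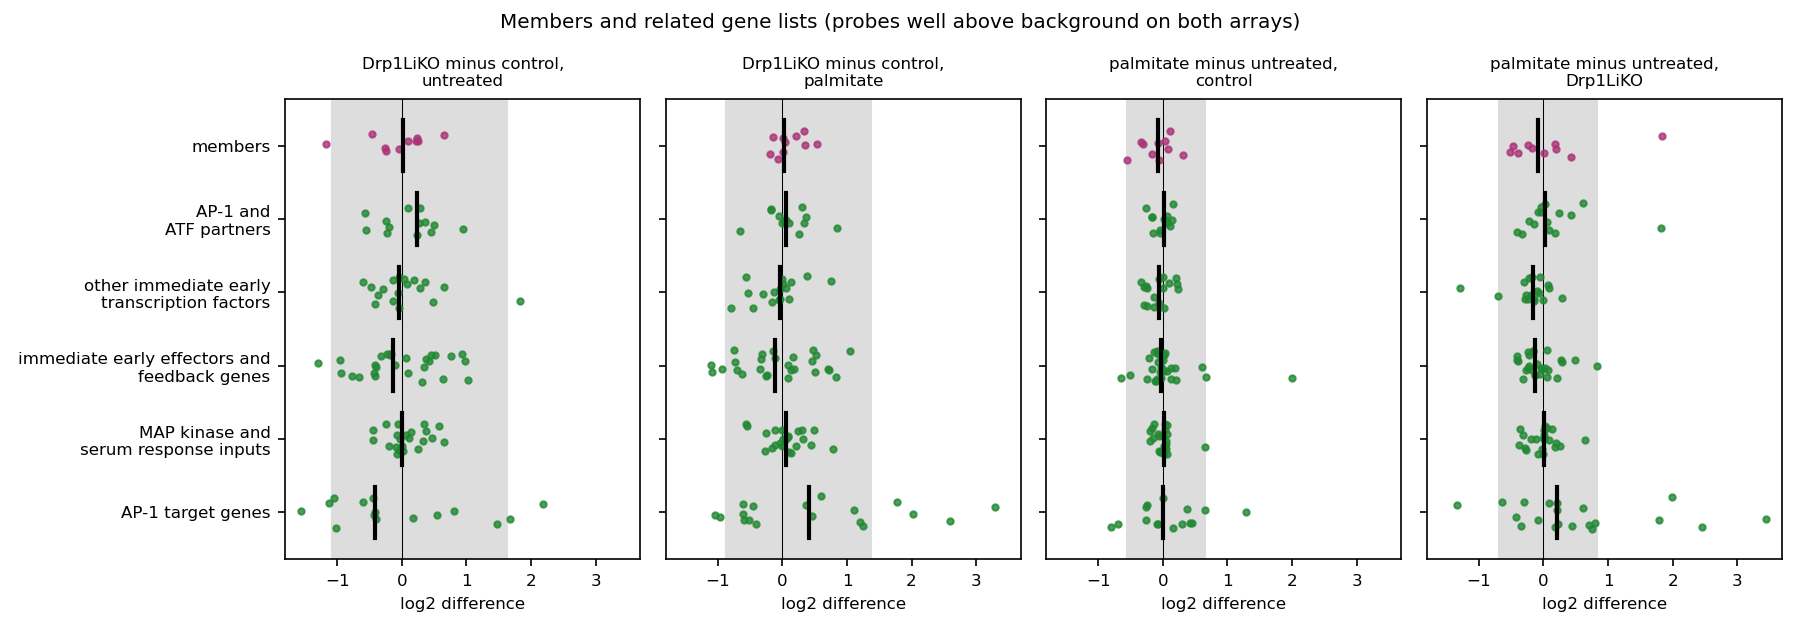
Log2 difference (horizontal axis) of the members and of the genes of 5 related lists (vertical axis) in the 4 comparisons, with 1 point for each gene whose probe was well above background on both arrays, a black bar for the median and a grey band from the 5th to the 95th percentile of all genes. AP-1 target genes spread from −1.56 to 3.44, whereas 9 of the 10 members lie inside 2-fold in every panel.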

How the data were processed

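RNA of 4 hepatocyte cultures was labelled with Cy3 and hybridised to 1-colour mouse oligonucleotide arrays. The deposited scanner tables hold intensity on a linear scale, which the authors obtained with Feature Extraction (10.7.1.1 in the file headers, 9.5.1.1 in the submitters' processing notes) with no scaling between arrays. The authors' own table of intensity has columns with the same sorted values, as quantile normalization gives, and served as an alternative. Labels and methods name different RNA kits.

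Here log2(processed signal) minus the 75th percentile of all non-control spots (intensities of 485, 542, 424 and 468 in untreated control, untreated Drp1LiKO, control with palmitate and Drp1LiKO with palmitate) was used. Between 44.7% and 51.1% of probes were well above background, and 0 spots were saturated. Control and outlier spots were left out, and repeat spots were averaged (median SD 0.034 to 0.038 on the log2 scale). The number of arrays limits the precision. A gene was its brightest probe, and could count as past 2-fold if at least 1 of the 2 arrays had it well above background. A fold given as a bound uses, for the dim array, the higher of its value and that array's lowest value well above background. Genotype and palmitate were fitted additively by limma (version 3.58.1, R version 4.3.3, eBayes), with two-sided p-values adjusted after Benjamini and Hochberg, a threshold of 0.05 and 1 residual degree of freedom. In a simulation of 20619 genes, of 200 genes changed by 2 log2 units in genotype the fit recovered 0 at each gene's fitted spread. At an equal spread it recovered 200 with 10 false calls. That equal spread was set far smaller than the change and is not the spread of these data, so it says nothing on the power here. Genes of the 5 lists were named where they were among the 2 highest or 2 lowest in a comparison, unless marked as named after their values were seen. The members and lists were chosen with earlier results of these data known. Probe positions are those of the files (mm9).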

Additional observations from a re-analysis of the deposited data

Results flagged for a closer look

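The genotype difference of Ier3 had opposite directions in the 2 conditions. It was −1.17 between the untreated arrays and 0.35 between the palmitate arrays, each beyond a scanner error of 0.204. With 1 array per group the difference between them was not tested, and condition and slide cannot be told apart. No group had enough arrays for a check of outlying samples.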

How the results depend on the processing

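No paired analysis was possible because the replicate numbers in the groups are all 1 and pair nothing. Both genotypes do lie on each slide, so the additive limma fit, whose palmitate term is also the slide, estimates genotype within slide. Each comparison was repeated with 8 alternatives, which were quantile normalization, median centring, normexp background correction, the authors' table, the mean over all probes, probes well above background on both arrays, no filter and a floor. Ier3 stayed past 2-fold between untreated genotypes, from −1.35 to −1.15, and for palmitate in Drp1LiKO, from 1.81 to 1.84, and in the difference of responses, from 1.52 to 1.54. No other member passed 2-fold under any of these, and no median of the members moved by 1.5-fold. At a size of 1.5-fold, the count of members higher between untreated genotypes went from 0 to 1, which is Atf3. In limma, an intensity trend in the variance called 5353 genes and 3 members (Atf3, Jun and Jund) for genotype and 186 genes for palmitate, with 0 members. Probes well above background on all 4 arrays gave 2594 genes and 1 member (Atf3) for genotype, and normexp 1520 genes and 0 members. Quantile normalization and no filter gave 0. Only the trend setting gave any call for palmitate. The cause was not tested. With no filter the median of all genes shifted by −0.20 in both genotype comparisons and by 0.22 and 0.21 for palmitate.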
